A study of Mus musculus with 6 samples.

Results

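The regions described here are the 5hmC-Seal peaks that appeared in the WT peak list and had no counterpart in the D2018A list. A WT peak was selected on its position alone: it shared no base pair with any D2018A peak, and peaks on chromosomes 5, 8 and X were left out. This gave 721 WT-only peaks among the 830 WT peaks on the 17 chromosomes kept (86.9%), out of 1230 WT peaks in all. In the other direction, 478 of 588 D2018A peaks on these chromosomes (81.3%) shared no base with a WT peak. Because the comparison of the lists chose the members, these percentages describe the choice and are not a test. A peak that is missing from the D2018A list was not called there, and no loss of 5hmC was measured.

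TET enzymes oxidize 5-methylcytosine in DNA to 5-hydroxymethylcytosine (5hmC), a step on the way to removal of methylation that also persists as a mark of its own. In mouse embryonic stem cells (mESCs), TET1 and TET2 are the main enzymes of this family, and both bind OGT, the enzyme that attaches the sugar GlcNAc to nuclear and cytoplasmic proteins. 5hmC-Seal tags 5hmC with an azide-carrying glucose and then with biotin, and pulls the tagged DNA fragments down before sequencing, so that reads pile up where 5hmC is dense.

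All samples were mESC lines made from the parental line LF2, with both copies of Tet1 edited to add a C-terminal FLAG tag to TET1. The WT group held lines 2 and 5, whose TET1 was otherwise wild type. The D2018A group held lines 7 and 8, in which aspartate was also replaced by alanine at the position that gives the mutation its name, a change made to impair binding of TET1 to OGT. The labels add 1 input library per genotype, prepared without labelling and capture. The lines are independently derived clones, and the study's methods describe a large deletion that the WT lines carry and the D2018A lines do not. Each genotype has 1 deposited list for both of its lines, so no value per line, no read depth and no spread between lines can be given. Nothing below was therefore tested, and the 95% intervals cover counting error only, with peaks as the units. The number of reads behind either list is unknown.

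Each peak comes with a position on the mm9 genome and a score from the peak caller MACS, which is 10 times the negative log10 of the peak's p-value, so that 10 units stand for a p smaller by 1 power of 10. Scores were compared between peaks of the same list and not between genotypes. The genome at hand was of another build, so the regions are given by position, without genes and without sequence.

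The scores of WT-only peaks lay mostly near the lower end of the list, as did those of all WT peaks. They ran from 50.04 to 153.36 with a median of 57.98 (95% interval of the median 57.18 to 59.1), and 411 of the 721 had a score under 60. The median over all 830 kept WT peaks was 58.58 (57.74 to 59.46), so the low scores are not particular to WT-only peaks. The lower and upper quartiles were 53.1 and 66.05. There were 69 WT-only peaks at or above a score of 80 and 24 at or above 100. The latter count was 40 with chromosomes 5, 8 and X included. The 109 WT peaks on the kept chromosomes that did overlap a D2018A peak had a median score of 61.74 (60.38 to 65.36) and reached 394.35. The strongest peak of the WT list was thus not WT-only, and the best WT-only score stood well under it.

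With any shared base counted as overlap, WT-only peaks made up a smaller part of the list at its strong end. In the band from 50 to under 55, 277 of 300 WT peaks were WT-only (92.3%, 95% Wilson interval 88.8 to 94.8%). Between a score of 55 and 100 their share in the 4 score bands lay between 81.8 and 87.6%, with intervals that overlapped one another. At 100 or more, 24 of 37 were WT-only (64.9%, 48.8 to 78.2%). The D2018A list had the same order at its ends, with 88.3% (83.5 to 91.8%) of peaks found in that list alone at 50 to under 55 and 36.8% (19.1 to 59.0%) at 100 or more. The count at the strong end of the WT list changed with the overlap rule. With 50% overlap of both peaks required, 33 of the 37 WT peaks at 100 or more were WT-only. The share among all kept WT peaks was then 90.4%. This rule cannot show whether the drop remains. A D2018A peak narrower than 50% of a WT peak fails it even when wholly inside that peak. Shared WT peaks at 100 or more had a median width of 1169 bp, against 417.5 bp for all shared D2018A peaks. With every peak replaced by 300 bp around its midpoint, 29 of the 37 were WT-only, beside 87.7% of all kept WT peaks. The other score bands were not recomputed under these rules. The overlap itself chose the members, so all these shares are descriptions.

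**Figure D1:**
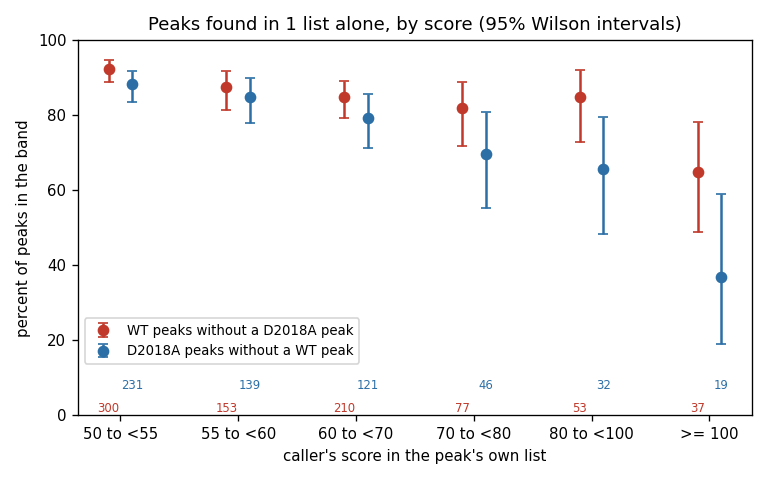
Percent of peaks found in 1 list alone (y axis) against the caller's score in the peak's own list (x axis, bands), for WT peaks in red and D2018A peaks in blue, with 95% Wilson intervals and the number of peaks in each band at the foot. In both lists the share is highest in the weakest band, 92.3% in WT and 88.3% in D2018A, and lowest from 100 upward, 64.9% and 36.8%. Peaks count as shared from 1 bp of overlap. With 50% overlap of both peaks required, 33 of the 37 WT peaks from 100 upward were WT-only, beside 90.4% of all kept WT peaks. Narrow D2018A peaks inside wide WT peaks fail that rule.

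WT-only peaks of higher score were wider, as were shared WT peaks and D2018A-only peaks of higher score. WT-only peaks were 281 to 2025 bp wide, with a median of 580 bp (561 to 589 bp) and quartiles of 487 and 693 bp, and together they covered 443325 bp. The median width was 520 bp for scores from 50 to under 55 and 966 bp for those of 100 or more, and Spearman's rho between score and width was 0.52 across the 721 peaks. It was 0.40 across the 109 shared WT peaks and 0.41 across the 478 D2018A-only peaks. Each rho is a description, since both values come from the same reads. WT peaks shared with D2018A were wider, with a median of 619 bp (575 to 673 bp). Within score bands the order was not fixed. At a score from 60 to under 70 the medians were 596.5 bp for WT-only and 590.5 bp for shared peaks. They were 702 and 636.5 bp at 70 to under 80, and 794 and 783 bp at 80 to under 100. Shared peaks were the wider ones in the other bands. There the medians were 520 and 545 bp at 50 to under 55, 556 and 564 bp at 55 to under 60, and 966 and 1169 bp at 100 or more. Of the 43 WT peaks that were at least 1000 bp wide, 27 were WT-only (62.8%, 47.9 to 75.6%). The count was 45 of the 47 that were narrower than 400 bp (95.7%, 85.8 to 98.8%), beside 86.9% of all kept WT peaks. Any shared base counts as overlap, so a wide peak has more bases that can meet a D2018A peak. The part of this in the contrast was not tested. The D2018A-only peaks were narrower, with a median of 343.5 bp (337 to 352 bp). That gap ran through both lists as a whole, with medians of 583 bp for all kept WT peaks and 350.5 bp for all kept D2018A peaks. Shared peaks had it too, with medians of 619 bp in WT and 417.5 bp in D2018A, so it is not particular to peaks found in 1 list. The settings of the caller for each list are not given in the sources used here, and their part in the widths was not tested. When every peak of both lists was replaced by 300 bp around its midpoint, 728 WT peaks had no D2018A counterpart.

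**Figure D2:**
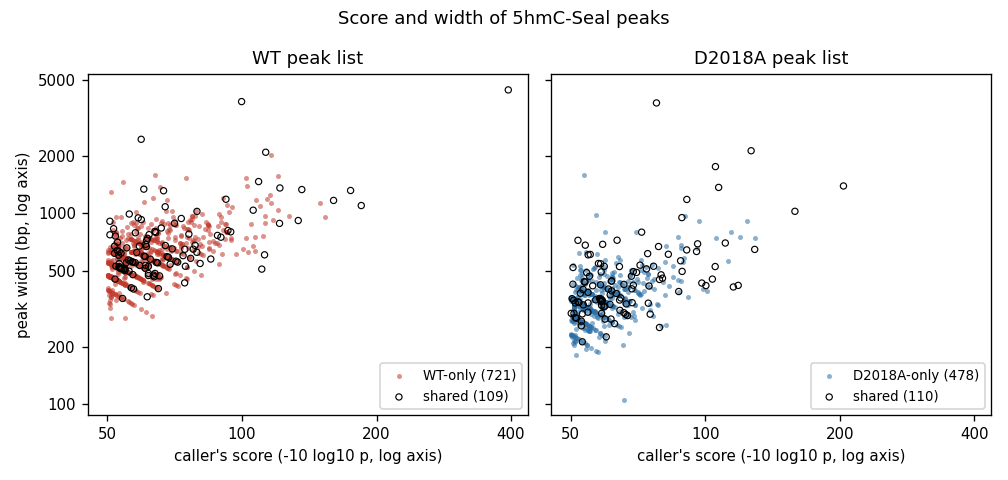
Width in bp (y axis, log) against the caller's score (x axis, log) for each peak of the WT list (left) and the D2018A list (right) on the 17 chromosomes; filled points are peaks found in that list alone, open circles are shared peaks. WT-only peaks crowd between scores of 50 and 66, and none reaches the shared peak with a score of 394.35.

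The WT-only peak with the highest score lay at chr2:31677957-31678911, was 955 bp wide and had a score of 153.36, which stands for a p of 4.61e-16 in the WT list. The D2018A peak nearest to it was 324562 bp away and had a score of 79.03. The second, at chr13:34838347-34839473, had a score of 149.32 and a width of 1127 bp. Of the 24 WT-only peaks that scored 100 or more it lay farthest from D2018A, at 10044931 bp, and its nearest WT peak was 553902 bp away. These 2 stood apart from the rest, as the next score was 127.31.

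The remaining 8 of the 10 strongest had scores from 127.31 down to 113.76. On chromosome 2 the peak at chr2:168396152-168397116 (score 127.31) lay 140962 bp from a D2018A peak with a score of 52.13. Chromosome 15 held 2 of this group. One, at chr15:88990096-88991672, had a score of 120.11, was 1577 bp wide and had a weaker WT-only peak 631 bp away. The other, at chr15:100409958-100411145, had a score of 113.76. The peak at chr6:90258976-90260018 had a score of 120.1 and lay 164170 bp from D2018A.

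Chromosome 12 also held 2. The peak at chr12:86021090-86022017 (score 117.03) was the only one of the 10 with a D2018A peak within 10 kb, which lay 8550 bp away and had a score of 72.87. The peak at chr12:87560790-87562814 (score 115.93) was the widest of all WT-only peaks at 2025 bp. The last of the group were chr1:91745336-91746471 (score 115.92), with another WT-only peak 977 bp away, and chr10:74453349-74454598 (score 115.32), whose nearest D2018A peak was 611885 bp away. The 10 strongest regions thus came from 7 chromosomes and did not gather in 1 place.

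On the remaining chromosomes the best WT-only peak had a lower score. It was 112.52 on chromosome 11 (chr11:60291948-60292837), 111.52 on chromosome 4 (chr4:142984040-142984802) and 106.97 on chromosome 3 (chr3:108742752-108743504). The best scores were 92.7 on chromosome 19 (chr19:47341684-47342787), 91.96 on chromosome 17 (chr17:87826330-87827208) and 89.87 on chromosome 16 (chr16:89788960-89789861). The lowest were 87.77 on chromosome 7 (chr7:29243604-29244298), 84.07 on chromosome 9 (chr9:96895918-96896786, tied with chr9:121381339-121382221), 82.89 on chromosome 14 (chr14:63962455-63963356) and 73.24 on chromosome 18 (chr18:74129514-74130205). Thus 10 of the 17 chromosomes carried a WT-only peak that scored 100 or more, and the other 7 had none.

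Most WT-only peaks were far from any D2018A peak. The distance, counted as the bases between the 2 peaks, ranged from 27 to 22226342 bp, with a median of 364286 bp (294274 to 461988 bp). Only 12 WT-only peaks (1.66%, 0.955 to 2.89%) had a D2018A peak within 1000 bp, and 53 (7.35%, 5.66 to 9.49%) had one within 10 kb. At the other end, 222 (30.8%) lay more than 1000000 bp from D2018A, and 50 (6.93%) more than 5000000 bp. The D2018A-only peaks were closer to the other list, with a median distance of 217971 bp (171738 to 258020 bp) and 57 of 478 (11.9%, 9.32 to 15.1%) within 10 kb. The list searched was the longer one in that direction, 830 WT peaks against 588 D2018A peaks, and how much this contributes was not tested. The median distance of WT-only peaks was 1098633 bp when peaks scoring under 60 were dropped from both lists, and 241447 bp with chromosomes 5, 8 and X included. Under these 2 changes 4.18% and 10.4% of WT-only peaks lay within 10 kb of D2018A. Dropping D2018A peaks under 60 thins the list searched, so the distance from a given WT peak can only stay or grow. The longer median therefore does not show that stronger WT-only peaks lie farther from D2018A.

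**Figure D3:**
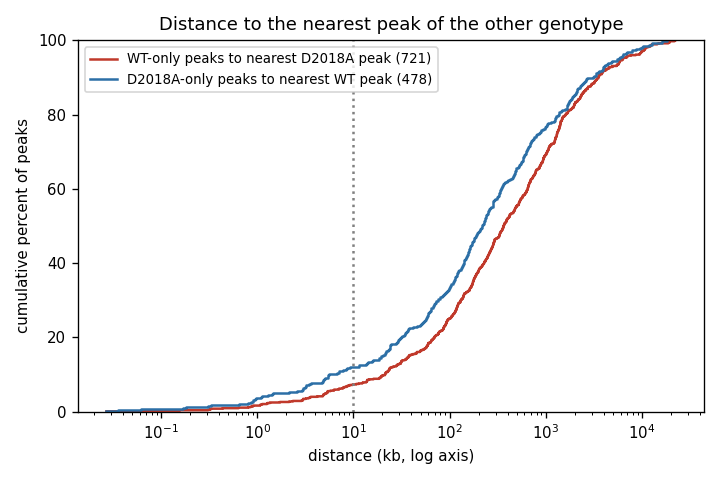
Cumulative percent of peaks (y axis) against the distance to the nearest peak of the other genotype in kb (x axis, log), for the 721 WT-only peaks in red and the 478 D2018A-only peaks in blue; the dotted line marks 10 kb. At 10 kb the WT-only line has reached 7.35% and the D2018A-only line 11.9%.

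Median scores differed little with distance from D2018A, while peaks that scored 100 or more were a larger share of the near bands. Spearman's rho was -0.10 between score and distance and -0.14 between width and distance, across 721 peaks. The median score was 54.88 (53.86 to 62.36) for the 53 peaks within 10 kb of D2018A, 59.26 (57.67 to 61.74) for the 128 peaks from there to 100000 bp, 57.77 (56.39 to 59.46) for the 318 peaks up to 1000000 bp and 57.90 (55.93 to 59.46) for the 222 peaks beyond. These intervals overlapped. The 24 that scored 100 or more had a median distance of 151206 bp (59569 to 419662 bp). That interval took in 364286 bp, the median for all WT-only peaks. Of these 24, 3 lay within 10 kb of D2018A, 10 within 100000 bp and 4 beyond 1000000 bp. They made up 5.66% of the peaks within 10 kb, 5.47% of those from there to 100000 bp, 3.14% of those up to 1000000 bp and 1.80% of those beyond, on counts of 3, 7, 10 and 4, and this order was not tested.

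The rule draws its line at 1 shared base pair, and the peaks on either side of that line were few. Just inside it, the WT-only peak at chr2:33963405-33964261 (score 59.46) was 27 bp from a D2018A peak at chr2:33962978-33963377 (score 65.85). The next were at chr1:75472024-75472882 (score 88.4, 61 bp away), chr17:27250303-27251067 (score 53.86, 155 bp), chr4:146034210-146034838 (score 103.18, 308 bp) and chr10:118297355-118297942 (score 76.0, 323 bp). The nearest D2018A peak was itself found in its list alone for 11 of the 12 WT-only peaks within 1000 bp and for 44 of the 53 within 10 kb, beside 81.3% of all kept D2018A peaks. Just outside the rule, the shared WT peak with the smallest overlap, at chr15:78502232-78503270 (score 105.92), had 42 bp in common with a D2018A peak. The next smallest overlaps were 212 bp at chr10:127158853-127159455 and 225 bp at chr3:88286234-88286705, where in each case the overlap took in the whole D2018A peak. Counting D2018A peaks up to 1000 bp away as shared left 709 WT-only peaks.

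The WT-only peaks farthest from D2018A were weak or moderate. They were 2 neighbours on chromosome 12, chr12:52595572-52596174 (score 67.03, 22226342 bp away) and chr12:53056855-53057363 (score 53.98, 21765153 bp). Another 2 were near the start of chromosome 2, chr2:5798966-5799307 (score 55.89, 19493982 bp) and chr2:6054805-6055352 (score 50.61, 19237937 bp), and 1 was at chr1:53670101-53670722 (score 51.46, 19360110 bp). On chromosome 1 the nearest other WT peak was 5926555 bp away. For the pairs on chromosomes 12 and 2 it was the other peak of the pair, 460680 and 255497 bp away. The median of this distance over all WT-only peaks was 219183 bp.

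WT-only peaks were mostly solitary. Of the 721, 402 (55.8%, 52.1 to 59.3%) had no other peak of either list within 100000 bp, and 603 (83.6%, 80.8 to 86.2%) had none within 10 kb. Another WT peak lay within 10 kb of 84 WT-only peaks (11.7%, 9.51 to 14.2%), and for 74 of these it was also WT-only, a share close to the 86.9% among all kept WT peaks. Among shared WT peaks 21 of 109 (19.3%, 13.0 to 27.7%) had such a neighbour. With chromosomes 5, 8 and X included, the share of WT-only peaks with a WT neighbour was 18.1%. It was 7.16% when peaks scoring under 60 were dropped from both lists, a change that also removes possible neighbours.

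When WT peaks at most 10 kb apart were joined, 48 runs of at least 2 peaks formed, and 42 of them were pairs. In all, 33 runs consisted of WT-only peaks alone, 30 of them with no D2018A peak within 10 kb, and 10 mixed WT-only with shared peaks. The run with the most peaks, at chr15:76002498-76014911, held 4 WT-only peaks with scores of 84.15, 53.84, 54.34 and 58.04 beside a shared peak with a score of 58.91. Its D2018A counterpart had a score of 87.27 in its own list, and 2 further D2018A peaks (scores 51.38 and 53.16) lay within 10 kb of the run without touching a WT peak.

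The run at chr11:117911281-117928438 held 4 WT-only peaks (scores 54.99, 59.1, 69.06 and 70.91) and no shared peak, with 1 D2018A peak beyond its end. Another 3 runs held 3 WT-only peaks each, and no D2018A peak lay within 10 kb of any of them. The shortest, at chr6:83316071-83318567, packed scores of 64.07, 67.6 and 105.65 into 2497 bp. The run at chr12:85983404-85992002 had scores of 69.84, 63.98 and 51.02, and its last pair of peaks lay 43 bp apart. The run at chr17:31001585-31012171 had scores of 66.76, 60.3 and 54.27, the widest peak being the weakest.

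**Figure D4:**
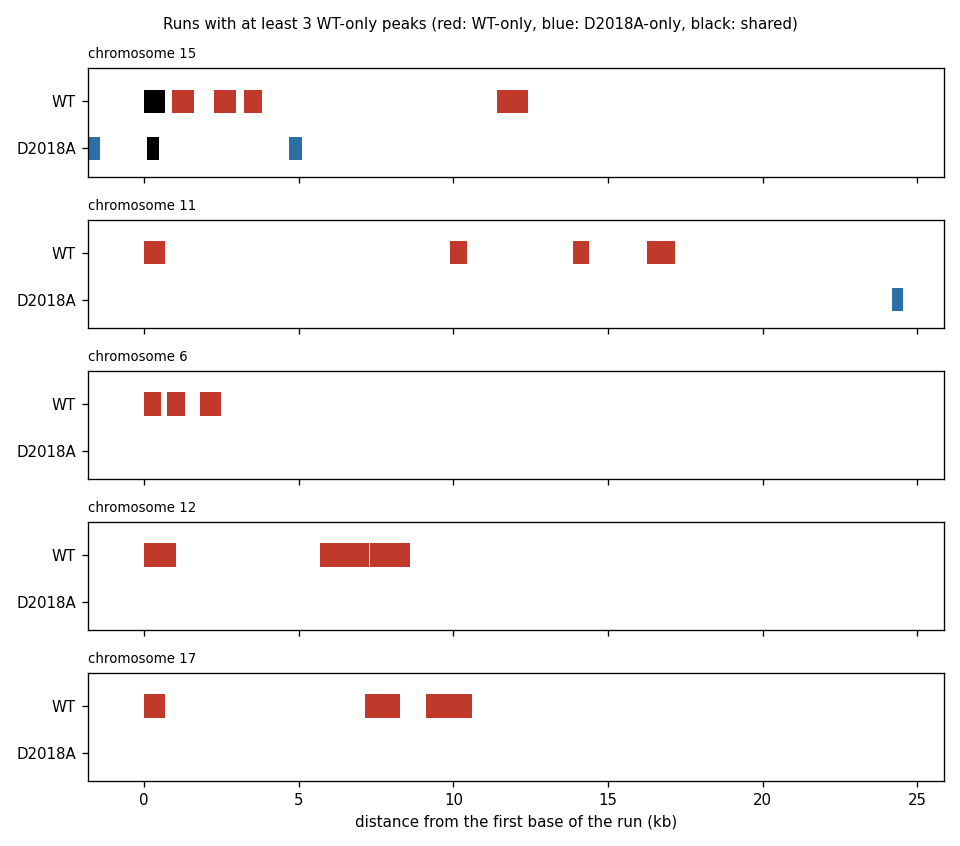
The 5 runs with at least 3 WT-only peaks, each drawn to scale by distance in kb from the first base of the run (x axis), with WT peaks above and D2018A peaks within 10 kb below; red marks WT-only, blue D2018A-only and black shared peaks. Only the runs on chromosomes 15 and 11 have D2018A peaks beside them, 3 and 1.

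WT-only peaks were unevenly spread over the chromosomes. The most were on chromosome 4 (76 peaks, 10.5% of the 721), chromosome 11 (73) and chromosome 2 (62), and the fewest on chromosome 18 (18). Set against the number of protein-coding genes that GENCODE M21 places on each chromosome, used here only as a total, the 17 chromosomes together had 3.90 WT-only peaks per 100 genes. Chromosomes 12, 15 and 4 had the most, with 7.15, 6.11 and 5.73, and chromosomes 6 and 7 the fewest, with 2.34 and 2.47. D2018A-only peaks were also most frequent on chromosome 12, with 6.84 per 100 genes against 2.58 overall. On that chromosome 1 window, from 85 to 90 Mb, held 23 of the 46 WT-only peaks and 16 of the 44 D2018A-only peaks. Across the 17 chromosomes, Spearman's rho was 0.83 between the numbers of WT-only and D2018A-only peaks and 0.67 between the number of WT-only peaks and of genes, given as descriptions since chromosome size enters each of these counts.

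There were 1.51 WT-only peaks for each D2018A-only peak on the kept chromosomes, and 1.41 WT peaks for each D2018A peak when all kept peaks were counted (830 and 588). The ratio was 2.53 on chromosome 15 (48 and 19 peaks), 2.25 on chromosome 16 (27 and 12) and 2.04 on chromosome 10 (55 and 27). It was 1.04 on chromosome 19 (24 and 23) and 1.05 on chromosome 12 (46 and 44). The ratio of all WT to all D2018A peaks moved with it, at 2.03 on chromosome 15, 1.94 on chromosome 16, 1.88 on chromosome 10, 1.03 on chromosome 19 and 1.04 on chromosome 12. The share of WT peaks that were WT-only ran from 78.0% on chromosome 12 (46 of 59, 65.9 to 86.6%) to 92.9% on chromosome 6 (26 of 28, 77.4 to 98.0%), with overlapping intervals.

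**Figure D5:**
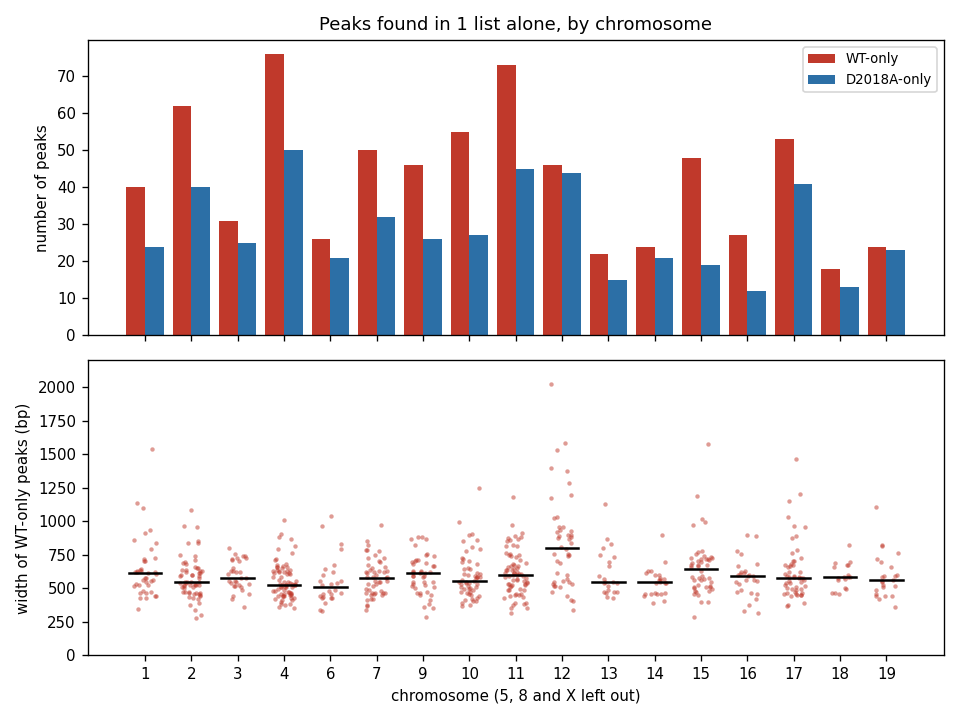
Top, number of WT-only (red) and D2018A-only (blue) peaks on each of the 17 chromosomes; bottom, width in bp of every WT-only peak by chromosome, with the median as a black line. Chromosomes 4 and 11 have the most WT-only peaks, 76 and 73, and the median width stands highest on chromosome 12, at 802.5 bp.

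Chromosome 12 stood apart in width. Its 46 WT-only peaks had a median width of 802.5 bp, whereas the medians of the other 16 chromosomes lay between 507 and 647.5 bp. The difference was seen in 1 window of 5 Mb, from 85 to 90 Mb, where 23 WT-only peaks had a median width of 932 bp (868 to 1200 bp) and a median score of 65.53 (56.47 to 75.04). The 23 WT-only peaks elsewhere on the chromosome had medians of 553 bp (516 to 755 bp) and 56.38 (53.1 to 64.62). The 24 D2018A peaks of the window were also wide for their list, with a median of 541.5 bp (467 to 748 bp) against 347 bp (340 to 352 bp) on the other kept chromosomes. Of the 27 WT-only peaks that were at least 1000 bp wide, 9 lay in this window. It held 3 of the 5 widest WT-only peaks, the peak of 2025 bp named above, chr12:85989085-85990671 (1587 bp, score 63.98) and chr12:87027006-87028540 (1535 bp, score 75.04). The other 2 were the peak at chr15:88990096-88991672 (1577 bp) and chr1:90161825-90163361 (1537 bp, score 102.25). The window was singled out after its values were seen.

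Windows rich in WT-only peaks differed in what the D2018A list held there. Of the 237 windows of 5 Mb with a WT-only peak, 65 had no D2018A peak at all, but these held only 103 of the 721 members and at most 5 in a window. The window on chromosome 12 had the most, 23 WT-only peaks beside 8 shared WT peaks and 24 D2018A peaks, and its WT-only peaks had a median distance to D2018A of 59624 bp. The next, on chromosome 11 from 115 to 120 Mb, had 20 WT-only peaks and 7 D2018A peaks and not 1 overlap between them, with a median distance of 536922 bp. On chromosome 4 from 135 to 140 Mb, 16 WT-only peaks stood beside 3 shared peaks. On chromosome 17 from 45 to 50 Mb there were 10 WT-only peaks and 1 D2018A peak, on chromosome 15 from 95 to 100 Mb 11 and 3, and on chromosome 7 from 25 to 30 Mb 10 and 4, again without overlap. Across all kept chromosomes 86.9% of WT and 81.3% of D2018A peaks overlapped nothing in the other list, so little is read from the lack of overlap in these windows. In these windows without overlap the median scores of WT-only peaks were 56.94 on chromosome 11, 54.52 on chromosome 17, 62.05 on chromosome 15 and 54.9 on chromosome 7, beside 57.98 for all WT-only peaks. The 9 windows with at least 10 WT-only peaks held 121 of the 721 WT-only peaks and 79 of the 588 D2018A peaks. As these windows were ranked by the number of members, the counts describe them and test nothing.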

How the data were processed

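5hmC-Seal was performed on 2 WT and 2 D2018A mESC lines, each from 100 ng of DNA, plus 1 input library for either genotype. Reads were trimmed by the authors (Trim Galore), aligned to mm9 (Bowtie) and passed to MACS 1.4. The deposited score is 10 times the negative log10 of that caller's p within 1 list per genotype. Caller settings and the way lines were combined are not given in the sources used here, and sources differ on instrument and read length. Depth is unknown, and there were 0 other columns of values.

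WT peaks sharing 0 bp with a D2018A peak were kept, except on chromosomes 5, 8 and X, and starts were made 1-based. Shares have Wilson intervals and medians have order-statistic intervals, at 95%. No test was run. Distance and overlap code was tested on simulated data (800 of 800 peaks recovered). Versions were scipy 1.17.1, numpy 2.4.6, matplotlib 3.10.9, pandas 2.3.3 and Python 3.11.15. The reference at hand was GRCm38, in which chromosome 7 ends at 145441459, before 4 WT-only peaks that reach 151597125, so no coordinates were read from it and no gene was assigned. Only gene totals per chromosome were taken.

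Regions named were the 10 of highest score, the best of each chromosome, the 5 widest, the 5 closest to and 5 farthest from D2018A, the 3 smallest overlaps and the runs with most WT-only peaks. Windows of 5 Mb were named after their values were seen. Members and lists were chosen with earlier results of these data known. Alternatives covered the overlap, score limits, merging, peak width and chromosomes.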

Additional observations from a re-analysis of the deposited data

How the results depend on the processing

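Of 55 values recomputed under 7 alternatives, 34 stayed within 1.5 times a count or within the interval of a share or median, and 21 moved. Counting D2018A peaks up to 1000 bp away as shared moved none of the 8 results. Requiring 50% overlap of both peaks gave 90.4% WT-only peaks and 10.9% of them within 10 kb of D2018A. Dropping peaks that scored under 60 from both lists left 335 WT-only peaks, with medians of 659 bp in width, 68.09 in score and 1098633 bp in distance, 4.18% within 10 kb of D2018A and 7.16% within 10 kb of another WT peak. Keeping WT peaks of score 100 or more left 24 (64.9% of such peaks), with medians of 966 bp, 112.02 and 151206 bp, 12.5% near D2018A and 0% near another WT peak of that score. Fewer peaks entering account for the counts by construction, and a floor on the score raises the median score. With peaks under 60 dropped, the lists searched are also shorter, so the distance from a given peak can only stay or grow. Merging peaks within 1000 bp gave 8.23% near another WT peak, since merged neighbours no longer count. With chromosomes 5, 8 and X the medians were 594 bp and 241447 bp, 10.4% lay near D2018A and 18.1% near another WT peak, and 40 had a score of at least 100. The cause of the remaining changes was not tested. No paired analysis was possible because both lines of a genotype share 1 list, and for that reason no line was left out. Plans that needed an mm9 genome (genes, sequence and CpG content) were not run. Unknown depth limits what an absent call can show.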
